A study of Mus musculus with 16 samples.

Results

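The 10 apolipoprotein genes described here are Apoa1, Apoa2, Apoa4, Apoa5, Apob, Apoc1, Apoc3, Apoe, Apoh and Apom, out of 21959 genes counted in the tumors of 16 mice. They were chosen by name, with earlier results of these data known. Apoe is set against the other 9, which are called the liver-restricted members here because hepatocytes make them, although the small intestine is the chief source of Apoa4. The study grew MC38, a mouse colon carcinoma cell line, as liver metastases in male wild-type C57BL/6 mice aged 6 weeks, by injecting the cells into the lower hemispleen, and sequenced RNA of tumor tissue. It compared 4 groups of 4 mice to learn how a TGF-β receptor inhibitor changes tumors treated with a checkpoint antibody. Control mice received PBS. The SB525334 group received 20 mg/kg of SB525334, an inhibitor of the type I TGF-β receptor, by gavage each day, and the KN046 group received 10 mg/kg of KN046, a bispecific antibody against CTLA-4 and PD-L1, by intraperitoneal injection 2 times a week. The combination group received both drugs. All groups carried the same tumor line and strain, and the labels do not state which tumor nodule a library came from or how much liver surrounded it.

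Apolipoproteins coat lipid particles in the blood and decide which enzymes and receptors act on them. Apob is the structural protein of chylomicrons and very low density lipoprotein, Apoa1 and Apoa2 are the main proteins of high density lipoprotein, and Apoa5, Apoc1 and Apoc3 adjust how fast triglyceride is removed by lipoprotein lipase. Apoe is a ligand for lipoprotein receptors and is made by macrophages and other cells as well as by hepatocytes, and Apob is made by the small intestine too.

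In GRCm39, the build of the deposited counts, 4 members lie together on chromosome 9, where Apoa1 (46139878 to 46142212), Apoc3 (46142527 to 46146934), Apoa4 (46151994 to 46154757) and Apoa5 (46179931 to 46183217) span 43340 bases. Apoc1 (chromosome 7, 19422540 to 19427328) and Apoe (19430034 to 19434947) are neighbours separated by 2705 bases. The other 4 lie apart, Apoa2 on chromosome 1, Apob on chromosome 12, Apoh on chromosome 11 and Apom on chromosome 17. RefSeq's promoter table (build GRCm38.p6) held windows for 8 members, all but Apoc1 and Apoc3. The letters TATAAA, searched on both strands, were present in the windows of 3 members (Apoa2, Apoa5 and Apob) and in 13.0% of all 27025 windows of the same length. Apoa5 and Apob are shown because their match lies close to the start and because both genes moved with the rest of the liver-restricted members. The match in Apoa5 begins 31 bases before RefSeq's start and 56 bases before the GENCODE start given above, and the match in Apob begins 60 and 31 bases before these starts. Each sequence matched GRCm39 exactly, is on the plus strand, holds no exon, and has TATAAA in capitals. The Apoa5 window is chr9:46179656-46179905. For Apob the stretch shown is chr12:8027427-8027647, and the last 29 bases of its window, to 8027676, are exonic and were left out.
Apoa5: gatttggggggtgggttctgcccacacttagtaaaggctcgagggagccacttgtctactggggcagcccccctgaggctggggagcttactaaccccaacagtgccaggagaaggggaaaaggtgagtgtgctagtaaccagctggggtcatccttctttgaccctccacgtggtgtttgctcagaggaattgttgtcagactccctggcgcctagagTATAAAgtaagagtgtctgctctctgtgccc
Apob: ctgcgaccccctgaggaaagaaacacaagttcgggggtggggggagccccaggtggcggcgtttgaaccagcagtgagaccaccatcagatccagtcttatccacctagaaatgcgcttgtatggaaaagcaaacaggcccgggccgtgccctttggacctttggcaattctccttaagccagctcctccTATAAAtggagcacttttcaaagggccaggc
The HNF4 letters CAAAGTCCA and the HNF1 letters GTTAAT were in no member's window, against 0.381% and 6.52% of all windows, and the nuclear receptor letters AGGTCA was in 1 (Apoh), against 13.8%. Each window holds the 250 bases before the first start that RefSeq lists, and those of Apoa2, Apoa4, Apoe and Apom are exonic over at least 249 of them in GENCODE. The windows of Apoa2, Apoe and Apoh lie inside the gene as GENCODE draws it. A match is a description of these letters only, and a missing one says only that they are not in this window.

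Libraries held 18368994 to 23877131 counts, and every member passed the filter on low counts that left 13968 genes for testing. Levels are given as CPM, counts scaled to a common library total with edgeR's TMM factors, and a gene is called changed when edgeR's adjusted p over all tested genes is under 0.05. Control mice 1 and 2 and control mice 3 and 4 were the 2 closest pairs of mice within a group, with a median chi-square between their counts of 1.24 and 0.955 against at least 2.69 elsewhere. They still differed by more than sampling noise and were kept as 4 mice. SB525334 mouse 4 had the lowest level of all 9 liver-restricted members in its group, and KN046 mouse 1 had the lowest of 8 of the 9 in its group. These mice also had the lowest summed CPM of 14 hepatocyte markers in their groups, 344 and 8326. Nothing in the labels says that the mice of a group were handled apart.

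In control tumors the members differed widely in level per kilobase of coding sequence. Apoe was highest at 3300 CPM per kilobase, followed by Apoa1 at 2120 and Apoa2 at 1129. Apoc1 (611), Apoc3 (331) and Apoh (223) came next, and Apoa5 (59.8), Apob (39.0) and Apom (36.3) formed a lower tier above Apoa4 (3.98). The only neighbours in this order whose control mice overlapped were Apob and Apom. With SB525334 the neighbours overlapped at every step below Apoe, and Apoe alone stood clear of the rest. In the combination Apoe remained first at 778 CPM per kilobase and Apoa2, the second, was at 2.10.

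SB525334 lowered all 10 members against control, where 9.22% of all tested genes were called lower. The CPM of Apoa1, the main protein of high density lipoprotein, was 1536, 1550, 1765 and 1865 in the control mice and 153.3, 226.5, 154.6 and 41.7 in the SB525334 mice. No SB525334 mouse came near the control range, and mouse 4 was the lowest. Apoa1 was 11.7-fold lower (log2 fold change −3.54 ± 0.37 SE, adjusted p = 2.39e-06). Apob, which carries the particles that leave the liver, had 583, 562, 488 and 475 CPM in control and 41.7, 32.9, 26.0 and 12.1 CPM with SB525334. It showed the largest of the 10 falls, 18.7-fold (log2 fold change −4.23 ± 0.35 SE, adjusted p = 5.35e-07). The mice of the SB525334 and control groups did not overlap for any of the 10 members, against 13.3% of all tested genes that were lower without overlap.

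The remaining liver-restricted members fell by similar amounts with SB525334, apart from Apoa4. Among the regulators of triglyceride removal, Apoa5 fell from 66.0 ± 5.61 to 5.35 ± 3.28 CPM (SD, n = 4), Apoc1 from 161 ± 16.9 to 14.5 ± 6.56 and Apoc3 from 143 ± 10.3 to 16.2 ± 8.34. Apoa2 fell from 345 ± 53.9 to 25.8 ± 13.5 CPM. Apoh, which binds phospholipid, fell from 231 ± 32.8 to 18.9 ± 11.6 CPM, and Apom, the carrier of sphingosine 1-phosphate, fell from 20.7 ± 3.91 to 1.95 ± 0.716 CPM. Their log2 fold changes lay between −3.74 (Apoa2) and −3.14 (Apoc3). Apoa4 had 105, 59, 110 and 113 counts in control and 19, 40, 42 and 8 counts with SB525334, a 4.07-fold fall (log2 fold change −2.02 ± 0.42 SE, adjusted p = 0.00385). The median log2 fold change of the 9 liver-restricted members was −3.54, against 0.00 for all tested genes.

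**Figure D1:**
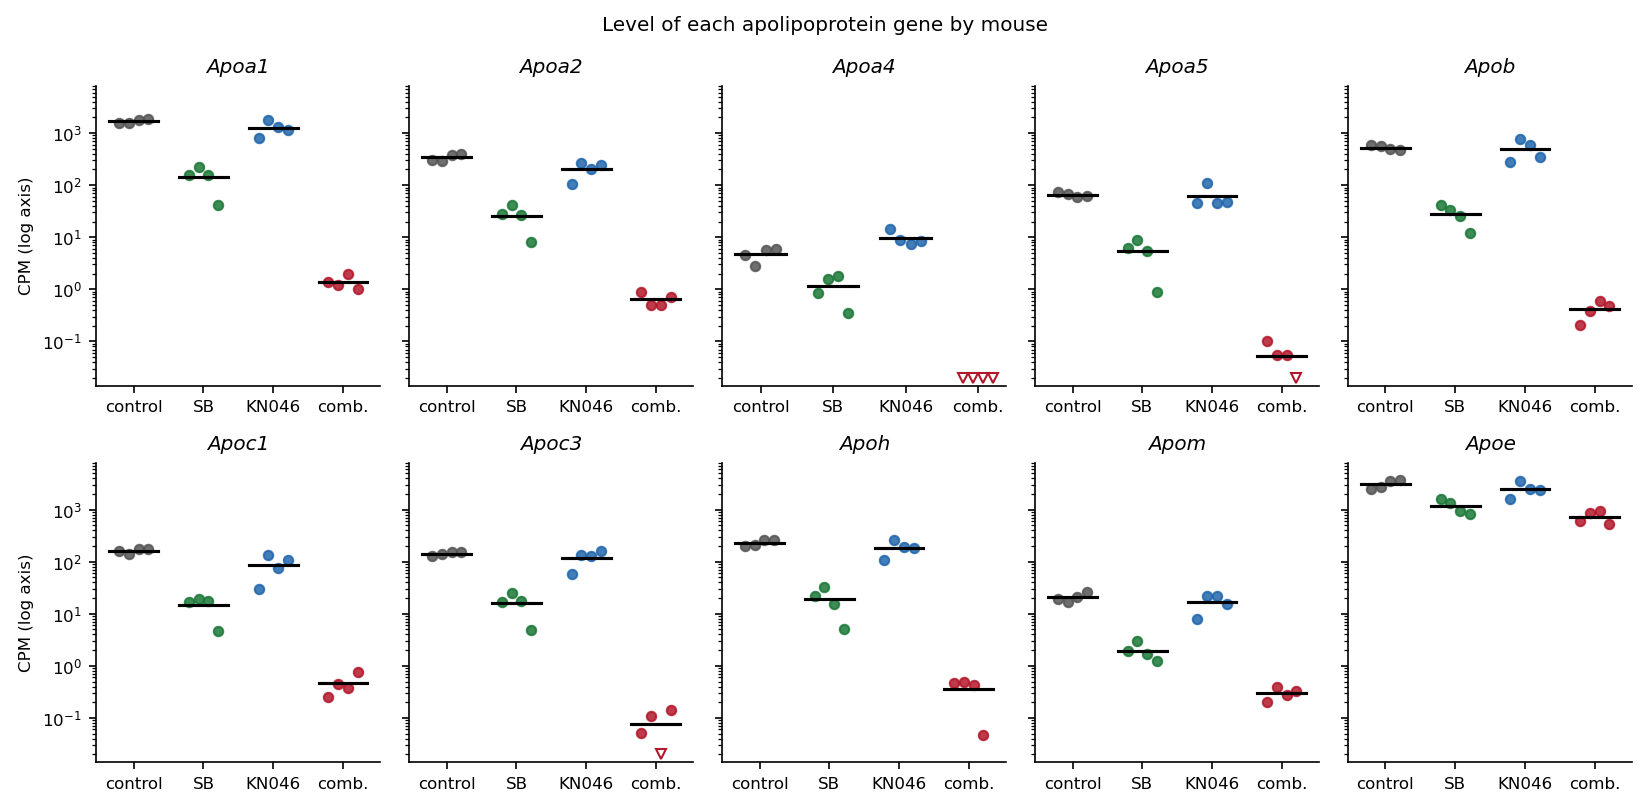
CPM on the TMM scale (log axis) of each apolipoprotein gene in the 4 groups, 1 point per mouse with the group mean as a bar and open triangles for mice with 0 counts (comb., combination). Apoe stays within 524 to 3645 CPM in all 16 mice, whereas Apoa1 runs from 1.04 CPM in the combination to 1865 CPM in control.

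Apoe fell less. It had 2529, 2675, 3467 and 3645 CPM in control and 1563, 1326, 931 and 809 CPM with SB525334. All 4 SB525334 mice were below all 4 control mice, and SB525334 mouse 1 was the nearest to them. Apoe was 2.66-fold lower (log2 fold change −1.41 ± 0.25 SE, adjusted p = 0.00063), at 37.6% of the control mean. The liver-restricted members other than Apoa4 were at 5.34% (Apob) to 11.3% (Apoc3) of their control means. These are bulk tumors, in which fewer cells of a type and less RNA per cell cannot be told apart.

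The combination lowered all 10 members again, against 9.74% of all tested genes, and took the liver-restricted ones close to the limit of detection. Apoa1 had 27, 22, 36 and 22 counts in the combination mice, against 32747 to 35705 in control. Apob had 4, 7, 11 and 10 counts, against 9097 to 13331 in control. All the combination mice thus lay far below every control mouse for both genes. The log2 fold change was −10.23 ± 0.52 SE for Apoa1 (adjusted p = 2.59e-10) and −10.29 ± 0.51 SE for Apob (adjusted p = 2.37e-10), which is 1201-fold and 1252-fold lower. Apoa2 (log2 fold change −9.05), Apoh (−9.34) and Apoc1 (−8.42) fell by 529-fold, 646-fold and 342-fold.

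Apom differed from the others among the liver-restricted members. Its counts were 4, 7, 5 and 7 in the combination and 355 to 498 in control. Its mean CPM was 1.44% of the control mean, and the other 7 liver-restricted members with any counts were at 0.0530% to 0.284%. As a percent of the mean count in all other mice, these 7 were at 0.0799% (Apoc3) to 0.504% (Apoc1). The hepatocyte markers were at 0.125% (Hpx) to 0.396% (Itih3) and Apom at 2.16%. Whether such counts came from these tumors or from other libraries was not tested. The falls given take all counts as the tumor's own. Apom fell 68.0-fold (log2 fold change −6.09 ± 0.39 SE, adjusted p = 2.72e-09). Apoa5 was seen in 4 reads over the 4 combination mice and in 5497 reads in control, a ratio of 1280 with an exact 95% counting interval of 500 to 4698. Apoc3 had 6 reads against 11795, a ratio of 1830 with an interval of 841 to 4989. Apoa4 had 0 counts in all 4 combination mice, so that, with a floor of 3 counts per library, it was at least 30.2-fold lower than in control. The intervals and floors cover counting error only. No combination mouse overlapped the control range for any member, against 12.1% of tested genes that were lower without overlap. The median log2 fold change of the 9 was −9.05 with the members at 3 or fewer counts set at their bound, against 0.01 for all tested genes.

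Apoe again fell least. Its CPM in the combination was 616, 844, 921 and 524, against 2529 to 3645 in control. The groups did not overlap, and combination mouse 4 was the lowest of all 16. Apoe was 4.24-fold lower (log2 fold change −2.08 ± 0.26 SE, adjusted p = 7.84e-06) and kept 23.6% of its control mean. Apoc1, its neighbour on chromosome 7, was at 0.284% of its own control mean.

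**Figure D2:**
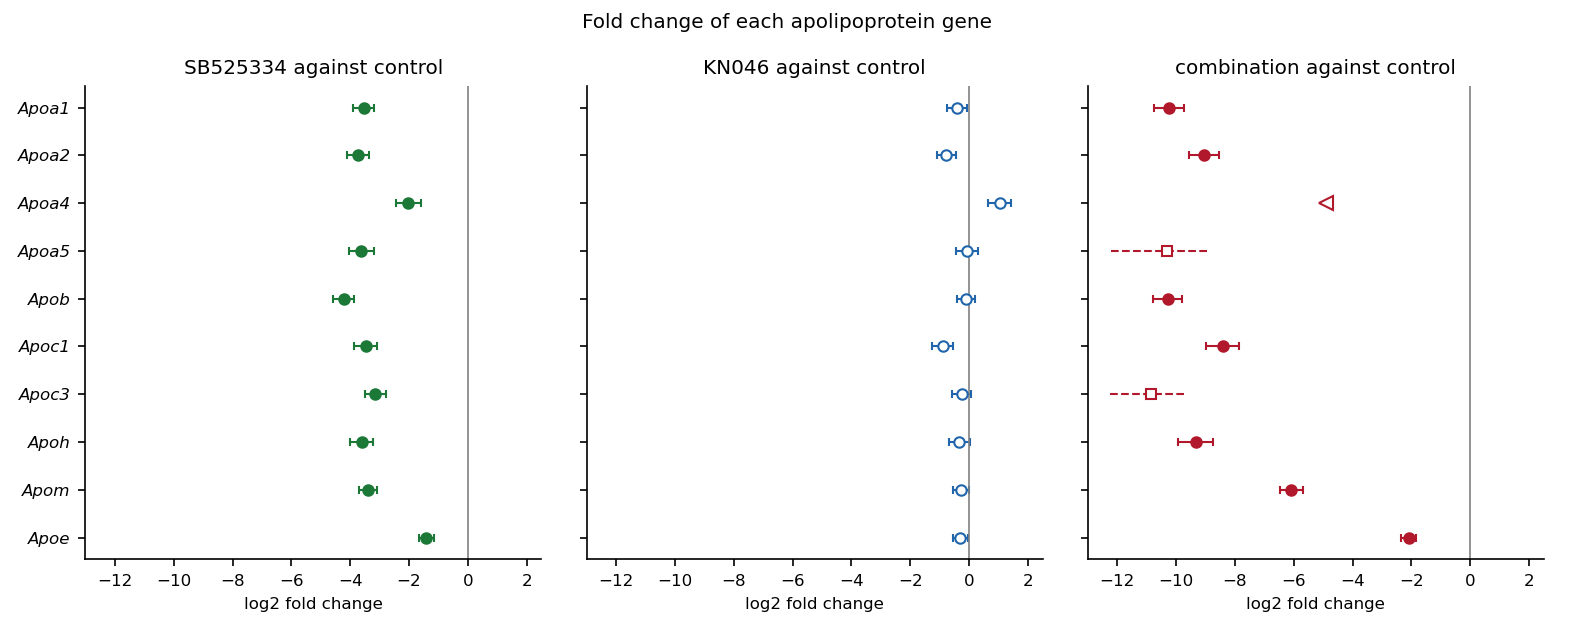
Log2 fold change against control of each member (x axis) with its SE for SB525334, KN046 and the combination, filled where the adjusted p is under 0.05. In the combination panel open squares are ratios of summed counts with their 95% counting interval (Apoa5 and Apoc3) and the open triangle is the bound for Apoa4. Apoe lies to the right of the other 9 in the SB525334 and combination panels, and with KN046 alone the members lie between −0.89 (Apoc1) and 1.05 (Apoa4), none of them filled.

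KN046 alone changed none of the 10 members by edgeR's test, against 4.0% of all tested genes called in either direction, and 3 members had an unadjusted p under 0.05. That background of 559 genes ranged from 21 to 2091 when 1 mouse was left out, KN046 mouse 1 and KN046 mouse 2 giving the extremes. DESeq2 with adjusted p also called 0, and with the thresholds of the study (unadjusted p under 0.05 and a change over 2-fold) it called 1, Apoa4. Apoa1 was at 1264 ± 402 CPM and Apob at 494 ± 222 CPM (SD, n = 4). The mice of both groups overlapped for each gene. The coefficient of variation of Apoa1 was 31.8% with KN046 and 9.68% in control. The control value includes the 2 close pairs of mice described above, and the difference in spread was not tested. Apob had 282, 759, 593 and 343 CPM in the KN046 mice, below, above, above and below the control range of 475 to 583 CPM.

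Of the 10 members, 3 had KN046 mice that did not overlap the control mice, against 11.6% of all tested genes. Apoa2 was lower, with 104, 262, 202 and 239 CPM against 296 to 399 in control (log2 fold change −0.78 ± 0.33 SE, adjusted p = 0.168). Apoc1 was also lower, with 30.4, 134, 75.5 and 107.8 CPM against 138 to 177 in control (log2 fold change −0.89 ± 0.36 SE, adjusted p = 0.157). Without KN046 mouse 2 the adjusted p of Apoc1 was 0.0486 and its log2 fold change −1.16. Apoa4 was the single member above control. It had 267, 186, 132 and 160 counts with KN046 against 59 to 113 in control, or 9.74 ± 3.07 against 4.72 ± 1.40 CPM. All 4 KN046 mice were above all 4 control mice and KN046 mouse 1, the lowest for the other 8 liver-restricted members, was the highest. The difference did not pass the test (log2 fold change 1.05 ± 0.39 SE, adjusted p = 0.127), and the adjusted p ranged from 0.0587 to 0.402 over the alternatives that gave one. Per 1000 Apoa1 counts, Apoa4 was 1.80 to 3.17 in control, 5.60 to 11.7 with SB525334 and 5.08 to 17.5 with KN046. The deposited counts do not state their strand setting, and Apoa4 overlaps annotated antisense genes, so that their reads cannot be told apart.

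The treated groups also differed from each other. SB525334 was below KN046 for all 10 members, against 13.5% of tested genes called lower, with log2 fold changes from −4.13 (Apob) to −1.12 (Apoe). The combination was below KN046 for all 10 as well, against 14.5%, and Apoe was 3.46-fold lower there (log2 fold change −1.79 ± 0.26 SE, adjusted p = 4.47e-05). Against SB525334 alone the combination was lower for 9 members, against 3.03% of tested genes. Apoa1 was 103-fold lower than with SB525334 alone, Apob 66.9-fold and Apom 6.46-fold (adjusted p = 0.00042). Apoa4 was at least 7.37-fold lower, and its call was lost when only the 8 mice compared were fitted. The exception was Apoe, whose mice in the combination overlapped those with SB525334 alone (log2 fold change −0.67 ± 0.25 SE, adjusted p = 0.254).

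The interaction, the difference between the SB525334 effect with and without KN046, was lower than 0 for the same 9 members, against 2.55% of tested genes. On the log2 scale it was −6.28 ± 0.55 SE for Apoa1 (adjusted p = 3.21e-06), −5.97 ± 0.58 SE for Apob (adjusted p = 7.33e-06) and −2.41 ± 0.50 SE for Apom (adjusted p = 0.00882). The fall of these genes with SB525334 was therefore larger, on this scale, when KN046 was given too. For Apoe the interaction was −0.38 ± 0.35 SE (adjusted p = 0.625), so a difference between its SB525334 effects was not detected. These comparisons share mice, so they are not independent of each other.

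Apoe made up a rising share of the counts of the 10 genes. It held 45.7% to 51.6% in the control mice and 49.4% to 52.4% in the KN046 mice. With SB525334 it held 84.4%, 77.3%, 77.8% and 91.1%, and mouse 4 was the highest. In the combination it held 99.4%, 99.6%, 99.6% and 99.3%, with exact 95% binomial intervals from 99.2% to 99.7%. The control and KN046 ranges overlapped, and neither overlapped the other groups.

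**Figure D3:**
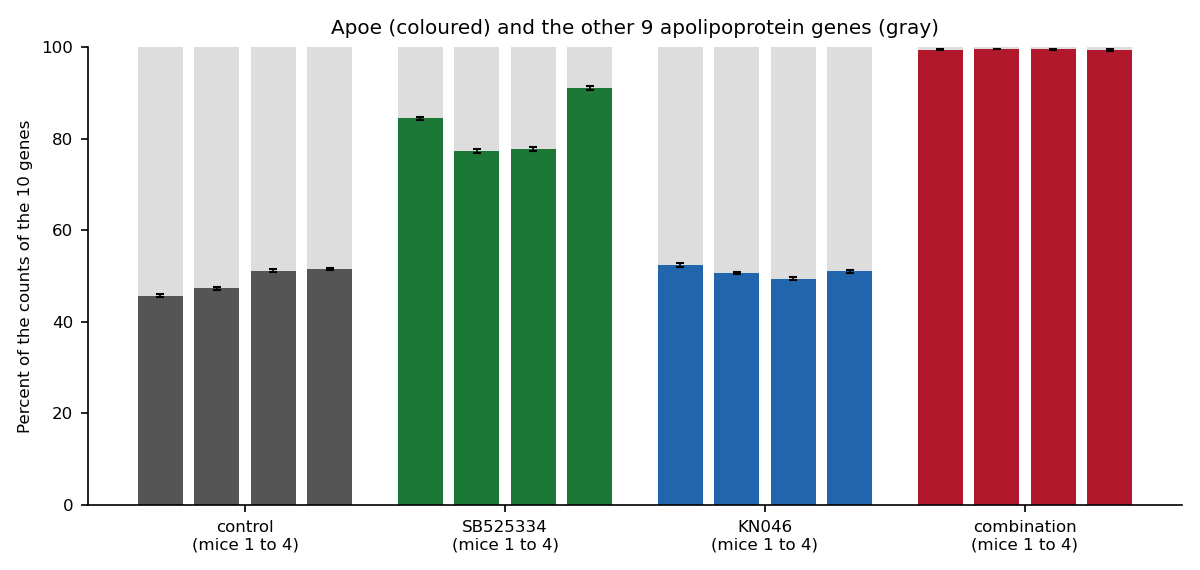
Percent of the counts of the 10 members that came from Apoe (coloured) and from the other 9 (gray) in each mouse, with exact 95% binomial intervals as error bars. Apoe rises from about the same share as the other 9 together in control and KN046 mice to over 99% in every combination mouse.

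The difference between Apoe and the other members was tested in a fit that took each mouse's Apoe count as its library size. As Apoe itself fell, 12251 and 13271 of 13967 genes were called in either direction on this scale with SB525334 and with the combination, most of them higher. With SB525334, 8 of the 9 liver-restricted members were lower relative to Apoe, against 4.95% of tested genes. Per 1000 Apoe counts, Apob went from 178 ± 49.8 to 23.6 ± 5.92 (SD, n = 4) and Apoa1 from 552 ± 49.2 to 122 ± 57.3. The differences were −2.92 ± 0.34 SE and −2.18 ± 0.33 SE on the log2 scale (adjusted p = 3.43e-08 and 2.48e-06). Apoa4 was the member not called, with 1.52 ± 0.333 per 1000 Apoe counts in control and 1.03 ± 0.696 with SB525334 (log2 difference −0.57 ± 0.47 SE, adjusted p = 0.25), and its mice overlapped. It was called when 6 macrophage genes were added to the reference. In the combination all 9 were lower relative to Apoe, against 4.90% of tested genes. Apoa1 was at 1.95 ± 0.359 and Apom at 0.429 ± 0.150 per 1000 Apoe counts (log2 differences −8.15 and −3.99). With KN046 0 of 9 were called, against 0.866% of tested genes in either direction, and 2 had an unadjusted p under 0.05. Apoa4 had the largest difference there, 4.46 ± 2.94 per 1000 Apoe counts (log2 difference 1.54 ± 0.46 SE, adjusted p = 0.101), and it was called without KN046 mouse 2.

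The liver-restricted members were set beside 14 hepatocyte markers, led by Alb, which encodes albumin. This does not test the name, as markers of other liver cells fell too. All 14 fell with SB525334 and with the combination, and 0 were called with KN046. Their summed level was 13030 to 15730 CPM in control, 344 to 1675 with SB525334, 8326 to 17250 with KN046 and 12.7 to 20.3 in the combination. No hepatocyte marker had a mean of 0 in any group. With SB525334 the markers had a median log2 fold change of −3.71, beside −3.54 for the liver-restricted members. In the combination the fitted medians were −9.64 and −9.61. The second is the fitted value of Apoa4, which had 0 counts there and so has no measured fold change. With members at 3 or fewer counts set at their bound it was −9.05. The part of the hepatocyte markers' fall in the fall of the members was not tested.

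Set against these markers, 7 of the 9 liver-restricted members had SB525334 mice that overlapped the control mice. The summed markers were largely Alb, at 8183 of 14440 CPM in control and 535 of 1131 with SB525334. It was 8340 of 13390 CPM with KN046 and 9.52 of 16.8 in the combination (means). Per 1000 hepatocyte marker counts, Apoa1 was at 116 ± 2.49 in control, 127 ± 14.3 with SB525334 and 82.8 ± 10.6 in the combination. Apoh was at 15.9 ± 0.725, 16.1 ± 2.44 and 20.4 ± 11.6, with overlapping mice throughout. With SB525334 the ratio was above every control mouse for 3 members, Apoa4, Apoc3 and Apoe, against 93.9% of all tested genes, and below for 0, against 0.587%. Apoe rose from 212 ± 18.1 to 1276 ± 732, while Apoc3 went from 9.92 ± 0.301 to 14.3 ± 1.70 and Apoa4 from 0.323 ± 0.0776 to 1.05 ± 0.431.

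In the combination the ratio was above every control mouse for 3 members, Apoe, Apom and Apoc1, against 95.8% of all tested genes. It was 203-fold the control mean for Apoe, 13.0-fold for Apom (18.6 ± 6.89 against 1.43 ± 0.177 per 1000) and 2.67-fold for Apoc1. The value for Apom rested on 4 to 7 counts per mouse and that for Apoc1 on 5 to 16. The ratio was below every control mouse for Apoa1 and Apoa4, against 0.909% of tested genes, and Apoa4 was at 0. With KN046 it was above every control mouse for Apoa4, at 2.62-fold the control mean, against 1.87% of tested genes. It was below for Apoa2 (0.632-fold) and Apoc1 (0.566-fold), against 3.98%.

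**Figure D4:**
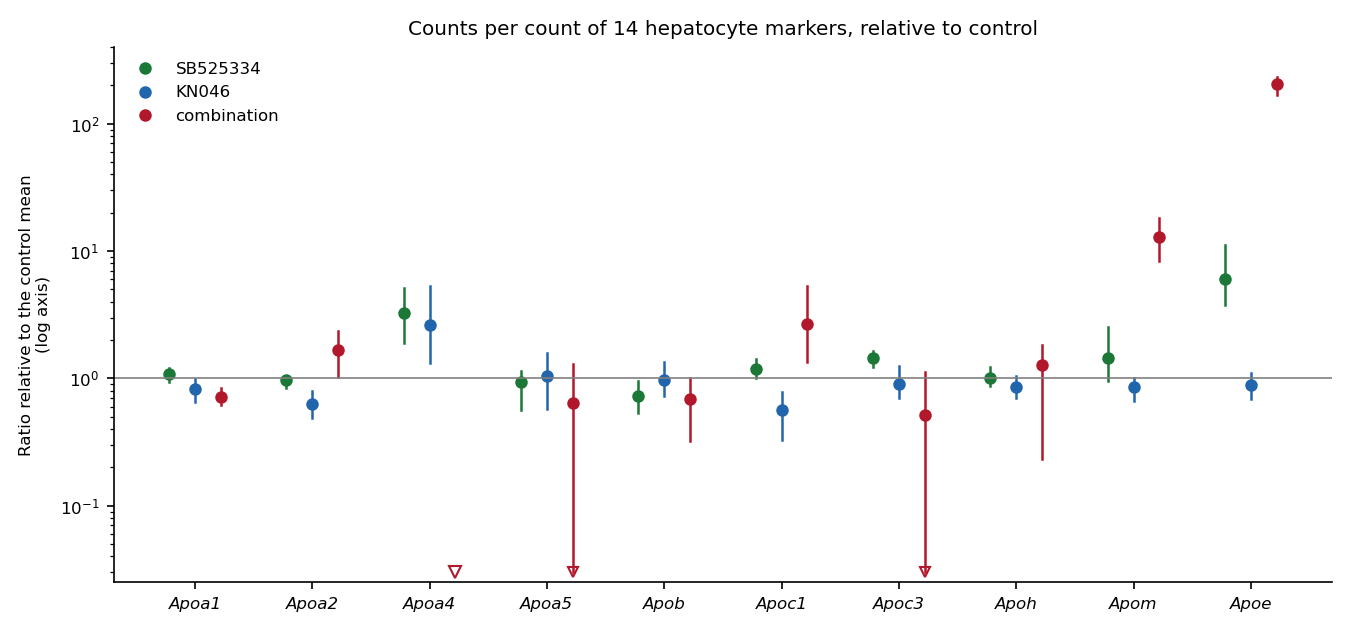
Counts of each member per count of 14 hepatocyte markers, relative to the control mean (log axis), as the group mean with the range over 4 mice; open triangles at the bottom mark mice at 0. Apoe stands at 6.02-fold with SB525334 and 203-fold in the combination, and Apom at 13.0-fold in the combination, on 4 to 7 counts per mouse.

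Apoe is also a macrophage product, so 12 macrophage markers were set beside it. None was called with SB525334 or KN046, and 1, Mertk, was called lower in the combination (adjusted p = 0.0479). Their summed level was 1918 to 2047 CPM in control, 1746 to 2728 with SB525334, 1013 to 1938 with KN046 and 1890 to 2702 in the combination. Apoe counts per summed count of C1qa, C1qb and C1qc, the chains of complement C1q, were 5.61 ± 0.555 in control and 5.95 ± 0.447 with KN046. They were 1.82 ± 0.389 with SB525334 and 1.17 ± 0.284 in the combination, and these mice did not overlap the control mice. All 5 Kupffer cell markers fell with both treatments that held SB525334. Their summed level was 162 to 331 CPM in control, 9.56 to 24.3 with SB525334 and 1.47 to 12.4 in the combination. The part of either cell type in the level of Apoe was not tested.

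Other cell types whose markers were counted also moved. Of 5 liver sinusoidal endothelium markers, 4 fell with SB525334 and 3 with the combination, while Lyve1 was called higher with KN046 (adjusted p = 0.0404), a call lost with the control pairs merged (adjusted p = 0.243) and without KN046 mouse 1 (adjusted p = 0.136). Their summed level was 121 to 228 CPM in control, 97.5 to 122 with SB525334 and 106 to 146 in the combination. Most of these sums was Fcgr2b, which was called in neither (means of 113.5, 104.7 and 113.5 CPM). The 4 markers that fell with SB525334 had means of 8.85 to 28.6 CPM in control and 0.712 to 2.93 CPM with it. Of 5 hepatic stellate cell markers, 3 fell with the combination, and of 5 genes for MC38 or other epithelium, 2 fell with SB525334 and 4 with the combination, with summed levels of 148 to 248 CPM in control and 6.44 to 16.1 in the combination. The control sum was mostly Krt8 (83.2 CPM) and Krt18 (86.0 CPM), keratins that hepatocytes express too and the 2 genes called with SB525334, beside Cdh1 at 20.5 CPM and Krt19 at 3.39 CPM. Epithelial Epcam and the intestinal factor Cdx2 were at 2.60 and 0.0127 CPM in control. For the small intestine, the other known source of Apoa4 and Apob, 4 of 6 markers could be tested. Alpi and Cdx2 were at 0 in all groups but control, 1 marker (Fabp2) fell with each SB525334 treatment, and the summed level was 4.39 to 11.6 CPM in all 16 mice. Of 5 fibroblast markers 1 fell with the combination, and of 5 erythroid markers 1 fell with SB525334 and 1 rose with the combination. Of 4 T cell markers 3 were called lower with KN046 (adjusted p = 0.0237 to 0.0315), calls lost with the control pairs merged (adjusted p = 0.191 to 0.212) and without KN046 mouse 1 (adjusted p = 0.0697 to 0.0854). Their part in the results was not tested.

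Of 48 tested genes in a list of 49 other lipoprotein genes, 26 fell with SB525334, 26 fell with the combination, 0 rose in either, and 0 were called with KN046. Over all tested genes 9.22% and 9.74% were called lower in the first 2 comparisons and 4.0% in either direction with KN046. The 48 genes had median log2 fold changes of −1.49 under SB525334 and −1.44 under the combination, against 0.00 and 0.01 for all tested genes. Of 5 other apolipoproteins tested, 4 fell in each treatment. Apof and Apon were called lower in the combination, with 1283-fold and 429-fold fewer counts (95% counting intervals 550 to 3954 and 226 to 939), and Apoc4, with 0 counts, was at least 56.7-fold lower. Clu, an apolipoprotein made by many cell types, fell 3.08-fold with SB525334 and 5.56-fold with the combination (adjusted p = 0.000349 and 2.83e-06). Apod, also made outside the liver, was not called in either (log2 fold changes 0.45 and 0.54). Apoc2 did not pass the filter on low counts, and its counts of 0 to 16 are uncertain because its exons overlap a second annotated gene.

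Of 7 genes for the assembly and secretion of particles, 3 fell with SB525334 and 3 with the combination. Mttp, the microsomal transfer protein that lipidates Apob, fell 2.60-fold with SB525334 and 2.32-fold with the combination, and A1cf, a cofactor for the editing of Apob mRNA, was at least 63.9-fold lower in the combination. Tm6sf2 was the third. Surf4, a cargo receptor for lipoproteins, was at 254 CPM in control and 267 CPM in the combination (adjusted p = 0.729). Among 11 remodelling enzymes and their regulators, 6 fell in each treatment. Pon1, carried on high density lipoprotein, had 2 counts in all over the combination mice against 6226 in control, and Lcat, which esterifies cholesterol on these particles, fell 14.4-fold with the combination.

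Among the receptors and their regulators, Sort1, a sorting receptor that binds Apob, fell 2.31-fold with SB525334 and 2.08-fold with the combination (adjusted p = 0.00651 and 0.0163). Cd36, a fatty acid and lipoprotein receptor, fell 3.02-fold with SB525334 (adjusted p = 0.0015) and was at 18.6 CPM in control and 18.2 CPM in the combination (adjusted p = 0.959). Lrp1, a receptor for Apoe, was at 1539 CPM in control, 1442 with SB525334 and 1405 in the combination (adjusted p = 0.838 and 0.69). Of 6 export genes 3 fell in each treatment, the sterol transporters Abcg5 and Abcg8 and the oxysterol receptor Nr1h3, whereas Abca1, which passes cholesterol to Apoa1, was at 49.2 CPM in control and 43.5 CPM in the combination (adjusted p = 0.763).

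Of 8 transcription factors known to act on apolipoprotein genes, 7 were called lower with SB525334 and all 8 with the combination, against 9.22% and 9.74% of all tested genes, with a median log2 fold change of −3.33 and, with factors at 3 or fewer counts set at their bound, −4.96. Hnf4a, a nuclear receptor of hepatocytes, went from 1505 to 1778 counts per control mouse to 2 counts in all over the combination mice, a ratio of 3083 with a 95% counting interval of 853 to 25460. With SB525334 it fell 15.0-fold. Cebpa, which other cells express too, was the factor not called with SB525334 (adjusted p = 0.063), and it fell 1.87-fold in the combination (adjusted p = 0.00184).

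The liver-restricted members rose and fell together across mice. Pearson's r of log2(CPM + 1) over 16 mice was between 0.94 and 0.997 for the 28 pairs without Apoa4 and between 0.87 and 0.94 for the 8 pairs with it. Within groups, as deviations from the group mean over the 12 mice outside the combination, the median r was 0.83 for the 28 pairs and 0.28 for those with Apoa4. For the 9 pairs with Apoe it was 0.78, and the lowest was Apoa4 with Apoe, at 0.03. Mice share their libraries across genes, so these values are descriptions.

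The genes most like Apoa1 over 16 mice were Ttr (r = 0.9985), Ahsg (r = 0.998) and Serpina1b (r = 0.9978), all plasma proteins of the liver. Ttr fell from 563 CPM in control to 52.3 with SB525334 and 0.535 in the combination. Those most like Apoe were Prodh2, Cyp2c37 and Spp2 (r = 0.97 each), which were at 10.6, 28.7 and 10.7 CPM in control and at 0.0138, 0.0256 and 0.0273 CPM in the combination. Because 1 is added before the log, values far below 1 CPM count as near 0, so these low genes track the order of Apoe across groups and not its 23.6% remainder.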

How the data were processed

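Tumor RNA of 16 mice with MC38 liver metastases was analysed, with 4 mice a group. Per the submitters' processing notes and the study's methods, reads were trimmed with cutadapt 2.7, aligned to GRCm39 with HISAT2 2.2.1 and counted per gene with HTSeq 2.0.4; strand and multimapping settings are not given in the sources used here. The authors deposited raw counts per gene, which were used, and DESeq2 1.38.3 normalized values, which were not used. Symbols came from GENCODE M39 (21770 of 21959 identifiers matched). Total counts of 18368994 to 23877131 per mouse set the precision.

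The counts were filtered by filterByExpr (minimum count 10), scaled by TMM and tested with edgeR 4.0.16 under R 4.3.3 in 1 quasi-likelihood fit over 16 mice (biological coefficient of variation 20.1%), and Benjamini-Hochberg adjustment over 13968 genes with a threshold of 0.05. SEs were derived from the F statistic. The fit relative to Apoe used the Apoe counts as library sizes. DESeq2 1.42.0, other scalings and filters, a replicate block, merged control pairs, the 8 mice of a comparison alone and each mouse left out were alternatives. Simulated data for the combination against control had 200 of 13968 genes changed. Of these, edgeR called 97.5%, DESeq2 99% and the fit relative to Apoe 98.5%, with 14, 40 and 17 of 13768 unchanged genes called. The median absolute log2 fold change of the changed genes was 2.03, 2.03 and 2.02 in these fits. Recovery of falls as large as those of Apoa1 and Apob in the combination was not tested. The fit relative to Apoe was not tested on data in which Apoe itself fell.

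The members and lists were chosen with earlier results of these data known. All 10 members are named, with the gene of largest rise and of largest fall in the combination in each lipoprotein role among those called, the 3 genes most correlated with Apoe and with Apoa1, and the highest hepatocyte marker, Alb. For most other marker lists the highest gene is not named. Other genes were named after their values were seen. Tf and Trac of the marker lists were not analysed here. Some genes of the receptor list, 1 of them named by this rule, are not reported here. No source states whether mice shared a cage or a processing day. The p-values set differences between groups against the spread between mice of a group, and treat the mice as independent.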

Additional observations from a re-analysis of the deposited data

Results flagged for a closer look

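The effect of SB525334 on the level of 6 liver-restricted members with counts to fit differed with and without KN046 by edgeR's interaction test. The log2 interaction was −6.28 for Apoa1, −4.53 for Apoa2, −5.97 for Apob, −4.05 for Apoc1, −5.40 for Apoh and −2.41 for Apom. The summed hepatocyte markers moved in the same groups, with a mean of 14440 CPM in control, 1131 with SB525334, 13390 with KN046 and 16.8 in the combination, and their part in these values was not tested.

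A gap test within each group of 4 mice, which chance alone meets in about 1 of 20 groups, marked 3 of 39 groups, where about 1.95 would be expected. Apoa5 was at 112 CPM in KN046 mouse 2, against 46.0 to 47.7 in the other 3 mice. Apoc1 was at 4.74 CPM in SB525334 mouse 4, against 17.0 to 18.9 in the others. Apoh was at 0.0471 CPM in combination mouse 4, which is 1 count, against 8 or 9 counts in the others.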

How the results depend on the processing

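Of 247 counts of called members recomputed over 10 results, 243 were unchanged or within 1.5 times of the value given, and the 4 that moved concern KN046. With KN046 against control, 1 member (Apoa4, higher) was called by DESeq2 under the thresholds of the study, and leaving out 1 mouse gave 0 to 1 (Apoc1, lower, without KN046 mouse 2). Relative to Apoe, 1 member (Apoa4, higher) was called without a filter on low counts, and leaving out 1 mouse gave 0 to 1 (Apoa4, without KN046 mouse 2). The causes were not tested. With 1 mouse left out, the log2 fold change with KN046 ranged from −0.47 to 0.0583 for Apoa5 (−0.07 with all mice; 0.0014 without control mouse 1, 0.0568 and 0.0463 without KN046 mouse 3 and mouse 4) and from −0.35 to 0.1003 for Apob (−0.09; 0.0475 without KN046 mouse 4). Apoa4 was called in 2 more settings differently: the combination against SB525334 gave 8 members, without Apoa4, from the 8 mice alone, and SB525334 relative to Apoe gave 9, with Apoa4, with macrophage genes in the reference. No other alternative changed which members were called.

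Replicate numbers were not used as pairs in the main fit. Of 24 same-numbered pairs, 12 had a correlation of deviations over 0.1 (range −0.479 to 0.529), and 8 of 16 mice correlated best with their own number. These values do not settle whether the numbers pair the mice. With the replicate block, 10, 0 and 10 members were called for SB525334, KN046 and the combination against control, and 182 genes in place of 121 with KN046 relative to Apoe.

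Counts over all genes moved more. With KN046 against control, 559 genes were called, against 1265 by DESeq2, 255 with total counts, 75 from the 8 mice alone, 0 with the control pairs merged (1824 at an unadjusted p under 0.05, edgeR), and 21 to 2091 with 1 mouse left out, without KN046 mouse 1 and without KN046 mouse 2 (each control mouse, SB525334 mouse 1 and KN046 mouse 3 also moved it over 1.5 times). Relative to Apoe the 121 became 66 by DESeq2, 293 without a filter, 56 with the pairs merged, 310 with macrophage genes added to the reference, and 48 to 1087 without KN046 mouse 1 and mouse 2. By the study's thresholds and from the 8 mice alone, SB525334 against KN046 gave 1483 and 1851 in place of 2787, the combination against KN046 1671 and 1855 in place of 3406, and the combination against SB525334 834 and 294 in place of 499. Without KN046 mouse 1 the first 2 gave 1850 and 2265. The interaction, 598, gave 951 by DESeq2, 1110 by the study's thresholds, 297 with the pairs merged, 958 without KN046 mouse 2 and 391 without combination mouse 4. Total counts changed the split of SB525334 against KN046 from 67.5% to 52.1% lower. Members and lipoprotein genes with 0 counts in all 4 combination mice were given a bound. Others at 3 or fewer counts per mouse there were given a ratio of summed counts with a counting interval. Medians with bounds set both kinds at the bound.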
